A study of Mus musculus with 10 samples.

Results

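SHH medulloblastoma (SHH MB) was compared with postnatal day 7 (P7) cerebellum in mice, over all genes, with 3 tumor and 3 cerebellum libraries of total RNA. These 6 libraries were taken by their sample titles out of 10 in the series, and the 4 tumors driven by MYC and SMARCA4 loss did not enter the comparison. The study sequenced both groups as controls for those tumors. The difference between the SHH MB and the cerebella shows which genes separate a Hedgehog-driven tumor of granule cell precursors from the developing tissue that holds such precursors.

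The SHH MB came from Math1-cre::Smofl/wt mice and the cerebella from Math1-creERT2::Smarca4fl/fl mice injected with tamoxifen (0.4 mg) when 3 days old. All 6 samples carry an age of 7 days in their labels, no other source used here gives the age of the mice with SHH MB, and all RNA was taken from formalin-fixed, paraffin-embedded (FFPE) tissue. Math1, also called Atoh1, is switched on in granule cell precursors, so both Cre drivers act in that lineage, and in the cerebella Smarca4 is deleted in those cells in which tamoxifen activated the Cre. They are therefore not wild-type tissue. The cerebella were whole organs with every cell type of the P7 cerebellum. The SHH MB are titled as medulloblastoma, and how much cerebellum was taken with them is not given in the sources used here. Genotype, tamoxifen, the Smarca4 deletion and the step from whole organ to tumor change together between the groups. These and any difference in age or strain cannot be told apart. The lines used for the cerebella were kept on a C57Bl6/J background. The strain of the SHH MB mice is not given in the sources used here. Nothing in the labels says whether the 3 libraries of a group came from separate mice, so p-values measure the spread between these samples.

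Hedgehog ligand from Purkinje cells binds the receptor Patched on granule cell precursors and lifts its block on Smoothened. Smoothened then moves to the primary cilium, where GLI transcription factors are released from SUFU and switch on target genes such as Gli1, Ptch1, Ccnd1 and Mycn that keep the precursors dividing. The pathway is normally turned down when precursors leave the cell cycle and become granule neurons, and its constant activity in this lineage gives rise to SHH MB.

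Between 5930961 and 8958307 reads were counted per library, and the smallest library of each group held 5933515 (P7) and 5930961 (SHH MB) reads. Of 50559 genes in the count files, 29018 had enough reads to be tested. The first principal component of the 6 libraries took 51.2% of the variance and separated the groups, and the second took 17.8% and set the library numbered 3 of each group apart from the other 2. Ribosomal RNA-like genes took 0.601% to 0.666% of counts in the cerebella and 1.10% to 1.56% in the SHH MB, mitochondrial genes 1.43% to 1.59% and 1.25% to 1.52%. Small structural RNAs took 0.622% to 1.40% in the cerebella and 0.244% to 0.539% in the SHH MB, so the groups overlapped neither here nor for the ribosomal RNA-like genes, and the part of these shares in the results was not tested. Y-linked genes were near 0 in P7 3, SHH MB 1 and SHH MB 3, where Xist was high, so each group held libraries of both sexes.

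In the comparison of SHH MB with P7 cerebella, 4708 of 29018 genes (16.2%) passed an adjusted p of at most 0.01 in edgeR's quasi-likelihood test. Of these, 2731 (9.41%) rose and 1977 (6.81%) fell in SHH MB. Among them, 282 (0.972%) rose and 291 (1.0%) fell by at least 1.5 on the log2 scale, and 55 (0.19%) and 22 (0.0758%) by at least 2.5. Of 16916 protein-coding genes tested, 2217 rose and 1723 fell, larger shares than among all genes tested. The log2 levels of the groups did not overlap for 10856 genes (37.4%), so a single gene whose groups stand apart is common here. The median log2 fold change of all genes tested was -0.07. Without the libraries numbered 3, a setting chosen after seeing the data, 1792 genes rose and 1787 fell. In the text below, rose and fell mean that a gene passed the adjusted p of 0.01, levels are CPM, the reads of a gene as a share of the scaled library size, and a fold change is SHH MB over P7 cerebella with its standard error (SE) on the log2 scale.

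**Figure D1:**
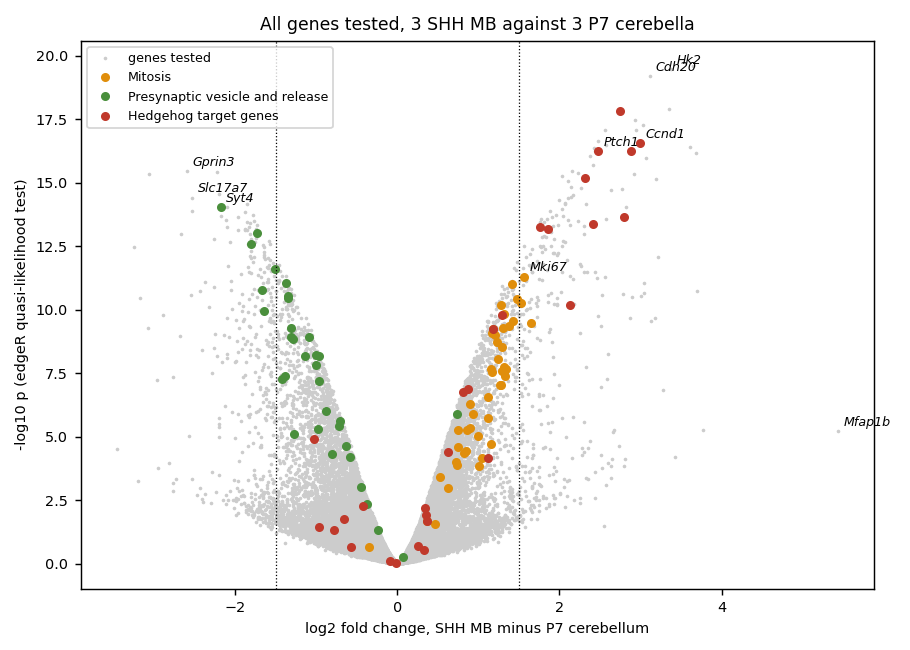
Each point is one of 29018 genes, with the log2 fold change of SHH MB over P7 cerebella on the x axis and -log10 of the unadjusted p on the y axis. Dotted lines mark a log2 fold change of 1.5 in either direction. Of 29 Hedgehog target genes (red) 16 rose, 10 of them past the line. Of 46 mitosis genes (orange) 43 rose, 3 of them past the line. Of 33 presynaptic genes (green) 29 fell, 6 of them past the line.

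Smo encodes Smoothened, the gene named in the SHH MB genotype (chromosome 6, 29735407 to 29762532, plus strand). Its level was 77.9, 70.8 and 81.2 CPM in P7 cerebella 1 to 3 and 138, 136 and 144 CPM in SHH MB 1 to 3. It rose 1.82-fold in SHH MB (log2 fold change 0.87, SE 0.12, adjusted p = 1.67e-06), and the groups did not overlap. Whether these reads came from the native gene or from an altered Smo allele cannot be read from gene counts.

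Smarca4, the ATPase of SWI/SNF chromatin remodelers that is deleted in part of the cerebellar cells (chromosome 9, 21527398 to 21615526, plus strand), stood at 241, 308 and 284 CPM in the cerebella and 607, 545 and 655 CPM in the SHH MB. It rose 2.17-fold in SHH MB (log2 fold change 1.12, SE 0.12, adjusted p = 8.09e-08). The counts cover the whole gene, and the deleted exons were not counted on their own, so the value does not measure how many cells had lost the gene. The deletion in the controls and the level of Smarca4 in the tumor cannot be told apart as sources of this difference.

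The receptor gene Ptch1 is a direct GLI target by which the pathway limits itself, and it was among the large rises. Its sequence before the start site is printed because GLI factors bind the motif GACCACCCA and this promoter holds it. Windows ran from 250 bases before to 50 bases after the canonical start in GENCODE vM39 on GRCm39, both strands were searched for GACCACCCA (TGGGTGGTC on the other strand), and no other motif was searched. The motif, in capitals, begins 165 bases before the start of Ptch1, on the strand opposite to the gene. The sequence runs 5′ to 3′ on the strand of the gene and stops before the canonical start.
Ptch1 (chr13:63714093-63714342, minus strand, inside an intron of longer Ptch1 transcripts): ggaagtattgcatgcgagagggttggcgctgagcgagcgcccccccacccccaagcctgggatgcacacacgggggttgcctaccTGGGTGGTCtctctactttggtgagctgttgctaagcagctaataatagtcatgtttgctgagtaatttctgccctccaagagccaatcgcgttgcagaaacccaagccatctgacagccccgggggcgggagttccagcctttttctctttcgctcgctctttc

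The motif occurred in 44 of 21729 promoters of protein-coding genes (0.202%) and in 41 of 16916 promoters of genes tested (0.242%). Among the promoters of genes that rose it was found in 8 of 2217 (0.361%), among them those of Arl5b, Espl1, Fancd2, Prps2, Ptch1, Smarca4 and Uaca. It was found in 2 of 146 large rises (1.37%), in 1 of 1723 promoters of genes that fell (0.058%) and in 0 of 244 large falls. A match shows only that these letters stand in the window.

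Of 30 Hedgehog pathway genes tested, 12 rose and 2 fell, with a median log2 fold change of 0.30. Most of the rises were receptors, co-receptors and GLI factors, while no ligand gene rose. Among 9 receptors and co-receptors, 6 rose, and the summed level of the 9 was 594 to 622 CPM in the cerebella and 2086 to 2626 CPM in the SHH MB. Without the libraries numbered 3, 10 of the 30 rose and 2 fell.

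Among the receptors, Ptch1 (chromosome 13, 63656142 to 63721412, minus strand) had 254, 254 and 272 CPM in P7 cerebella 1 to 3 and 1247, 1437 and 1671 CPM in SHH MB 1 to 3. All 3 tumors lay above all 3 cerebella, and the gene rose 5.58-fold (log2 fold change 2.48, SE 0.13, adjusted p = 9.27e-14). Hhip, a membrane protein that captures Hedgehog ligand and is itself a target (chromosome 8, 80692480 to 80784658, minus strand), had 21.4, 21.6 and 25.7 CPM against 104, 121 and 116 CPM. The groups stood far apart, with a 4.98-fold rise (log2 fold change 2.32, SE 0.14, adjusted p = 6.48e-13).

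The co-receptors Boc and Gas1, which help ligand reach Patched, also rose. Boc went from 119, 96.8 and 89.7 CPM in the cerebella to 246, 238 and 281 CPM in the SHH MB. Each tumor had more than each cerebellum, at a log2 fold change of 1.32 (SE 0.13, adjusted p = 5.95e-09). Gas1 had 22.5, 22.9 and 20.1 CPM and 52.3, 51.4 and 59.1 CPM. Its groups did not overlap either (log2 fold change 1.31, SE 0.15, adjusted p = 9.53e-08). The third co-receptor of that kind, Cdon, did not pass, with 50.8, 54.3 and 52.8 CPM in the cerebella and 48.4, 59.8 and 61.2 CPM in the SHH MB, which overlapped.

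Among the transducers, Gli1, the GLI activator whose transcription itself depends on the pathway, had 54.2, 54.3 and 62.4 CPM in the cerebella and 212, 172 and 195 CPM in the SHH MB (chromosome 10, 127165751 to 127177865, minus strand, with Arhgap9 on the opposite strand). It rose 3.39-fold (log2 fold change 1.76, SE 0.12, adjusted p = 1.98e-11). Gli2, the main activator downstream of Smoothened, had 113, 96.6 and 112 CPM and 188, 188 and 212 CPM, a rise of 1.83-fold (log2 fold change 0.87, SE 0.12, adjusted p = 2.04e-06). Gli3, the GLI factor that mainly represses, stood at 45.4, 46.1 and 55.7 CPM and 42.4, 47.2 and 51.9 CPM and did not pass (adjusted p = 0.843). The 3 GLI genes thus had log2 fold changes of 1.76, 0.87 and -0.05. Sufu, which holds GLI factors back, had overlapping groups and a log2 fold change of 0.13 (SE 0.13, adjusted p = 0.509). Of the ciliary proteins that carry the signal, the kinesin Kif7 (0.89) and the paired proteins Evc (0.81) and Evc2 (0.73) rose on the log2 scale. Iqce, which anchors Evc and Evc2, passed narrowly at 0.46 (adjusted p = 0.00949) and missed the threshold under 12 of 16 other settings, which included leaving out any single library. Evc2 missed it without P7 2 (adjusted p = 0.0244) and without SHH MB 3 (adjusted p = 0.0126).

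On the ligand side, Shh itself was low in every library, with 6.02, 5.25 and 4.08 CPM in the cerebella and 3.29, 4.58 and 2.05 CPM in the SHH MB, which overlapped (log2 fold change -0.62, SE 0.35, adjusted p = 0.230). Disp2, a relative of the protein that releases Hedgehog ligand from cells, had 166, 199 and 165 CPM in the cerebella and 66.4, 65.6 and 62.8 CPM in the SHH MB. It fell 2.72-fold (log2 fold change -1.45, SE 0.12, adjusted p = 5.43e-10) and was the only one of 6 ligand-side genes to pass. Grk2, a kinase that acts on Smoothened and on many G protein-coupled receptors, was the other pathway gene that fell (log2 fold change -0.72, SE 0.12, adjusted p = 4.59e-05).

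**Figure D2:**
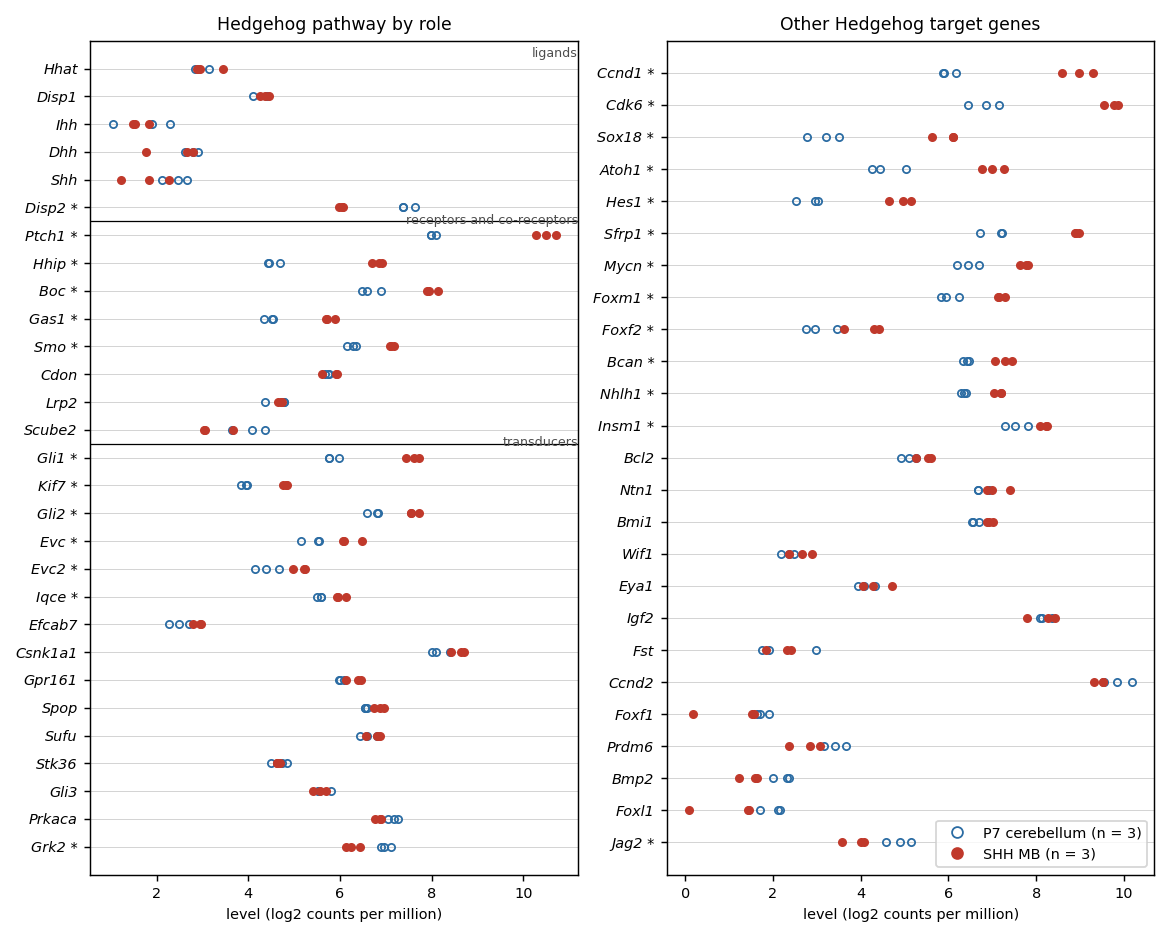
Levels in log2 CPM (x axis) of 29 of the 30 Hedgehog pathway genes by role (left) and of the other listed target genes (right), with one open blue circle per P7 cerebellum and one filled red circle per SHH MB, 3 of each. Asterisks mark genes with an adjusted p of at most 0.01, and the receptors Ptch1 and Hhip show the widest gaps on the left while Ccnd1, Cdk6 and Sox18 do on the right.

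Of 29 genes listed as Hedgehog targets, 16 rose and 1 fell, with a median log2 fold change of 0.81, and 10 of the rises were large. Their summed level was 2498 to 3128 CPM in the cerebella and 5996 to 6848 CPM in the SHH MB. Leaving out any single library left 14 to 16 that rose.

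Ccnd1, the cyclin that drives precursors through the G1 phase, had 59.1, 58 and 72.1 CPM in the cerebella and 382, 502 and 624 CPM in the SHH MB (chromosome 7, 144483668 to 144493662, minus strand). It rose 7.98-fold (log2 fold change 3.00, SE 0.15, adjusted p = 6.67e-14), the largest change on the list. Cdk6, the kinase that cyclin D binds, went from 143, 86.5 and 116 CPM to 752, 879.5 and 926 CPM. That was 7.40-fold (log2 fold change 2.89, SE 0.15, adjusted p = 9.27e-14). Ccnd2, the other D-type cyclin of granule cell precursors, had 1166, 744 and 912 CPM against 733, 739.99 and 641 CPM, with a log2 fold change of -0.42 that did not pass (adjusted p = 0.0271). Among the D-type cyclins only Ccnd1 passed.

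Mycn, the MYC family member that Hedgehog signaling induces in these precursors, had 103, 86.5 and 72.4 CPM in the cerebella and 218, 198 and 225 CPM in the SHH MB. It rose 2.44-fold (log2 fold change 1.29, SE 0.13, adjusted p = 1.28e-08). Other targets that rose were Sox18 (log2 fold change 2.796), a transcription factor also used by endothelium, the Notch effector Hes1 (2.14), the WNT inhibitor Sfrp1 (1.86) and the cell cycle regulator Foxm1 (1.18). Which cells the rise of Sox18 came from was not tested. Jag2, a Notch ligand, was the target that fell (log2 fold change -1.02, SE 0.19, adjusted p = 0.000159). Igf2, which cooperates with Hedgehog signaling in granule cell precursors, had 282, 327 and 270.2 CPM and 306, 222 and 346 CPM, overlapping groups without a call (log2 fold change -0.01). Bcl2 and Bmi1 also did not pass, with log2 fold changes of 0.37 and 0.34.

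A list of 20 genes used to tell human medulloblastoma groups apart, most of them high in human SHH MB, shares 10 genes with the Hedgehog lists. In it 13 rose and 1 fell, with a median log2 fold change of 1.16. Outside the Hedgehog lists, Pdlim3, a cytoskeletal LIM domain protein, went from 13.3, 15 and 12.9 CPM to 69, 84.2 and 103 CPM (log2 fold change 2.63, SE 0.16, adjusted p = 1.62e-12). Otx2 rose (1.03 on the log2 scale) and Fstl5 fell (-1.61), both of which are better known as high in other human groups. Of the 20 genes, 6 did not pass. Of 26 primary cilium genes, 8 rose, led by the retrograde motor gene Dync2h1 (0.95) and the transport genes Ift74 (0.81) and Ift80 (0.79), and 1 fell. Only 5 rose without P7 1, without P7 2 or without SHH MB 3, and 4 without both libraries numbered 3. Over all alternatives but the fit of 10 libraries, the lowest count of rises was 1. The single fall, that of Ehd1 (-0.57), was lost without SHH MB 1 and without SHH MB 2, and 2 genes fell without both libraries numbered 3.

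Large calls whose groups did not overlap were ranked at a mean of at least 2 log2 CPM, leaving out predicted and small RNA symbols. Among these, the 10 largest rises included Hk2, Cdh20, Adamts14, Myod1, Akna and Sowaha. Hexokinase 2 (Hk2, chromosome 6, 82699740 to 82751469, minus strand), the first enzyme of glycolysis, had 23.6, 19.9 and 20.7 CPM in the cerebella and 246, 209 and 214 CPM in the SHH MB. It rose 10.4-fold (log2 fold change 3.38, SE 0.13, adjusted p = 4.95e-16), with every tumor far above every cerebellum. The cadherin gene Cdh20 had 29, 29.1 and 25.6 CPM and 239, 237 and 250.01 CPM. Replicates of either group were close to one another, and the gene rose 8.65-fold (log2 fold change 3.11, SE 0.13, adjusted p = 6.13e-16).

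Myod1, the transcription factor that sets muscle fate, had 2.79, 3.22 and 5.33 CPM in the cerebella and 45.9, 25 and 21.3 CPM in the SHH MB. The rise was 8.26-fold (log2 fold change 3.05, SE 0.28, adjusted p = 2.62e-09) and came from 25, 27 and 34 reads in the cerebella and 265, 191 and 135 in the tumors. Further rises were those of Adamts14 (3.07), a protease that trims procollagen, of Akna (3.03), a protein of the centrosome, and of Sowaha (3.69). The laminin chain Lama5 (2.94), the AMPA receptor partner Gsg1l (2.56) and Lrig3 (2.47) were also among the 10 genes of lowest p by the naming rule.

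The largest rise in this ranking rested on one library. Mfap1b had 25, 13 and 5 reads in the cerebella and 21, 1714 and 23 in SHH MB 1 to 3, a fitted log2 fold change of 5.44 that was 1.07 without SHH MB 2 (adjusted p = 0.156). Its near copy Mfap1a, with which it may share reads, did not pass, at a log2 fold change of 0.85 (adjusted p = 0.0270). The ribosomal RNA-related gene Rn18s-rs5 also ranked among the 10 (log2 fold change 3.35), and Lars2, which overlaps a stretch similar to ribosomal RNA, rose with it (2.92). Both are themselves counted in the share of ribosomal RNA-like reads given above, and the part of ribosomal RNA depletion in these values was not tested.

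**Figure D3:**
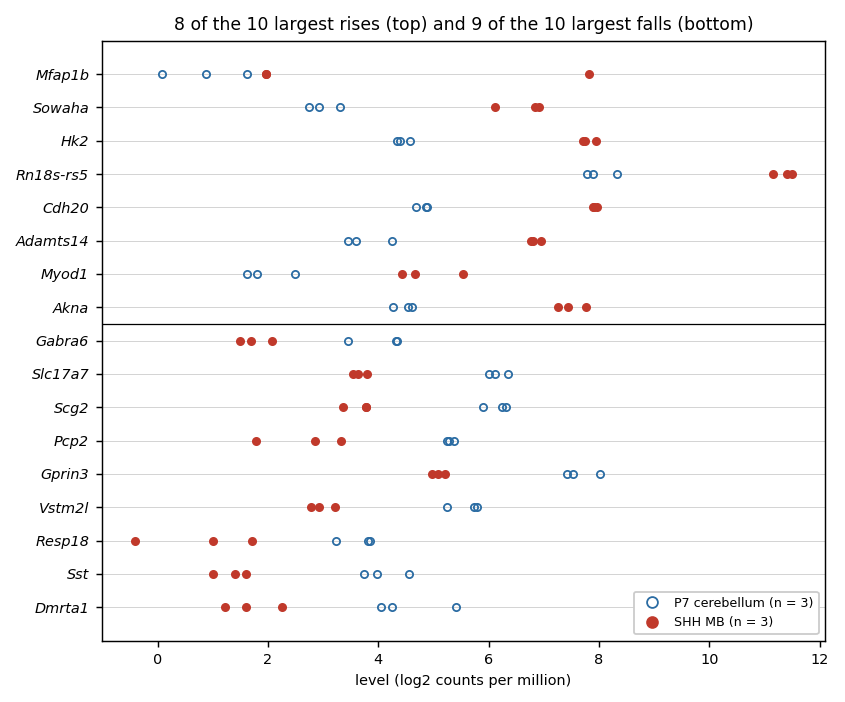
Levels in log2 CPM (x axis) of 8 of the 10 largest rises and 9 of the 10 largest falls in SHH MB. Genes were ranked among those past both thresholds, with the exclusions of the naming rule. Each P7 cerebellum is an open blue circle and each SHH MB a filled red circle, 3 of each. Only Mfap1b, at the top, owes its difference to a single tumor library.

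The 10 largest falls in the same ranking were mostly those of genes that neurons express. The neuropeptide gene Sst had 15.4, 23.3 and 13 CPM in the cerebella and 1.73, 2.75 and 2.37 CPM in the SHH MB (log2 fold change -2.89, SE 0.29, adjusted p = 1.26e-08). Gprin3, named for its part in neurite outgrowth, went from 259.5, 185 and 169.98 CPM to 31.3, 36.5 and 33.8 CPM (log2 fold change -2.59, SE 0.15, adjusted p = 4.31e-13). The secretory granule gene Scg2 (-2.53), Resp18 (-2.76), Vstm2l (-2.67) and the transcription factor Dmrta1 (-3.08) fell as well, and Slc17a7, Gabra6 and Pcp2 are given with their cell types.

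Markers of the granule cell lineage split by stage. Of 21 genes of precursor identity, 9 rose and 2 fell (median 0.32), with 1 fall without P7 1, SHH MB 1 or SHH MB 2. Of 28 genes of migrating granule neurons, 7 rose and 12 fell (median -0.23). Of 22 genes of mature granule neurons, none rose and 18 fell (median -1.63), and 18 fell in each fit that left out one library. In bulk tissue, fewer cells of a type and less RNA of its genes per cell cannot be told apart, and the cerebella held all cell types of the organ.

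At the precursor stage, Atoh1, the transcription factor that defines the lineage (chromosome 6, 64706109 to 64708229, plus strand), had 32.4, 19 and 21.5 CPM in the cerebella and 109, 127 and 155 CPM in the SHH MB. It rose 5.33-fold (log2 fold change 2.41, SE 0.17, adjusted p = 1.6e-11). Cxcr4, the chemokine receptor that keeps precursors in the outer layer, had 19, 19.1 and 13.5 CPM and 115, 148 and 150.00 CPM, a 7.95-fold rise (log2 fold change 2.99, SE 0.15, adjusted p = 6.14e-14). Barhl1, a homeobox factor of the lineage, went from 145, 119 and 125 CPM to 349, 403 and 461 CPM (log2 fold change 1.64, SE 0.13, adjusted p = 1.53e-10). By contrast Zic1 and Pax6, which precursors and granule neurons both express, did not pass, with log2 fold changes of -0.04 and 0.26. Neurod1, which starts granule neuron differentiation, had 465, 479 and 388 CPM in the cerebella and 176, 194 and 192 CPM in the SHH MB. It fell 2.37-fold (log2 fold change -1.24, SE 0.12, adjusted p = 7.22e-09).

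At the migrating stage the genes that rose were the axon guidance receptors Dcc and Robo1, the nuclear factors Nfia, Nfib and Nfix, and the polarity and adhesion genes Pard3 and Jam3. Dcc had 168, 197 and 221 CPM in the cerebella and 754, 767 and 949 CPM in the SHH MB. Its rise was 4.22-fold (log2 fold change 2.08, SE 0.13, adjusted p = 4.13e-12). Nfia went from 878, 858 and 969 CPM to 2077, 2265 and 2569 CPM (log2 fold change 1.35, SE 0.13, adjusted p = 3.28e-09). Neurod2, a later differentiation factor, had 172, 195 and 196 CPM against 35.8, 39.7 and 45.3 CPM, a 4.66-fold fall (log2 fold change -2.22, SE 0.13, adjusted p = 4.46e-13). The adhesion molecule Cntn2 (-1.25), the microtubule regulator Stmn2 (-1.58) and L1cam (-1.27) fell too, while Dcx, a general marker of migrating neurons, did not pass (-0.15). The rise of Nfix (0.46) was lost without P7 1, P7 2, SHH MB 1 or SHH MB 2 (adjusted p = 0.0299, 0.0395, 0.0471 and 0.0156) and with the replicate number as a block (adjusted p = 0.0285). That of Jam3 (0.63) was lost without P7 2, P7 3 or SHH MB 3 (adjusted p = 0.0323, 0.0229 and 0.0266).

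At the mature stage, Slc17a7, the vesicular glutamate transporter of granule neurons, had 68.8, 81.6 and 63.8 CPM in the cerebella and 11.4, 12.2 and 13.6 CPM in the SHH MB. It fell 5.76-fold (log2 fold change -2.53, SE 0.16, adjusted p = 2.75e-12). Gabra6, a GABA-A receptor subunit found in granule neurons, had 20.0, 19.7 and 10.7 CPM and 2.94, 3.93 and 2.52 CPM, a 5.32-fold fall (log2 fold change -2.41, SE 0.28, adjusted p = 1.87e-07). Grm4 (-2.10), Vsnl1 (-2.04), Cbln3 (-1.80) and Kcnk9 (-1.77) followed. Only Etv1, Rbfox3, Grin2c and Reln of the 22 did not pass, with log2 fold changes of 0.26, -0.08, -0.11 and -0.24. The summed level of the list was 4182 to 4895 CPM in the cerebella and 2229 to 2559 CPM in the SHH MB.

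**Figure D4:**
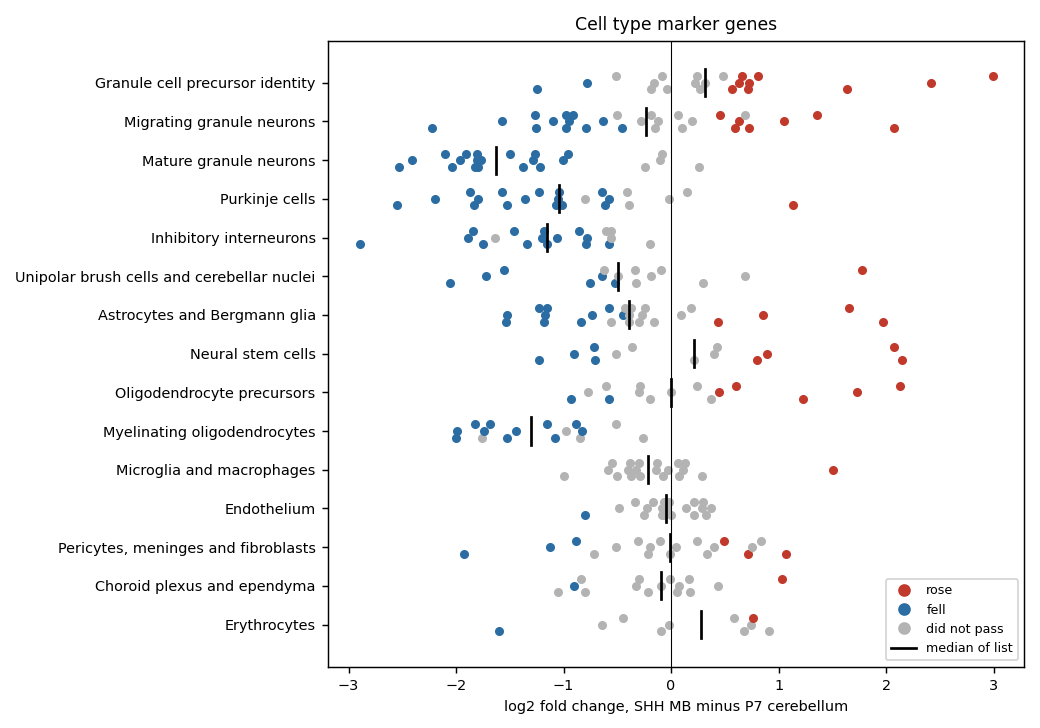
Log2 fold change of SHH MB over P7 cerebella (x axis) for every tested member of 15 cell type marker lists, with genes that rose in red, genes that fell in blue and genes that did not pass in grey. Black bars mark the median of each list, which falls from 0.32 in precursor identity to -1.63 in mature granule neurons.

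Most Purkinje cell and interneuron markers fell in SHH MB. Among 22 Purkinje cell markers, 16 fell and 1 rose (median -1.05), and among 19 inhibitory interneuron markers 14 fell and none rose (median -1.16). Pcp2, a gene of Purkinje cells, had 38.5, 41.3 and 37.6 CPM in the cerebella and 6.92, 9.69 and 3.15 CPM in the SHH MB. It fell 5.84-fold (log2 fold change -2.55, SE 0.23, adjusted p = 2.98e-09). Gad1, which makes GABA, had 116, 112 and 108 CPM and 45, 55.9 and 20.8 CPM (log2 fold change -1.46, SE 0.19, adjusted p = 1.54e-06), and SHH MB 3 was the lowest library for both. Gad1 did not pass with robust estimation in edgeR (adjusted p = 0.0349). Eomes, a factor of unipolar brush cells, went from 32.7, 37.3 and 30.3 CPM to 8.48, 7.85 and 7.89 CPM (log2 fold change -2.05, SE 0.19, adjusted p = 2.17e-09). Of the 15 genes of unipolar brush cells and cerebellar nuclei, 6 fell, 1 rose (Spp1, 1.78) and 8 did not pass (median -0.50). The exception among the Purkinje cell markers was Bcl11a (1.13), a transcription factor that many other neurons also express.

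None of the markers of these neurons was at 0 in all 3 SHH MB. The summed level was 3475 to 3935 CPM in the cerebella and 1781 to 2294 CPM in the SHH MB for Purkinje cell markers, and 866 to 965 CPM in the cerebella and 364 to 533 CPM in the SHH MB for interneuron markers. Their part in the other differences was not tested.

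Glial lists were mixed. Of 16 genes of myelinating oligodendrocytes, 11 fell and none rose (median -1.30). Mbp, the myelin basic protein gene, had 559, 715 and 653 CPM in the cerebella and 222, 202 and 62.3 CPM in the SHH MB. It fell 3.97-fold (log2 fold change -1.99, SE 0.24, adjusted p = 4.33e-07), with SHH MB 3 far below the other tumors, and did not pass with robust estimation (adjusted p = 0.0741). The list as a whole summed to 1181 to 1396 CPM in the cerebella and 184 to 523 CPM in the SHH MB. The oligodendrocyte precursor list went both ways, with 5 rises and 2 falls among 15, and with 1 fall in each fit that left out a library. Olig2, a factor of the oligodendrocyte lineage and of early progenitors, had 17.9, 22.7 and 11 CPM and 65.1, 81.9 and 80.9 CPM. It rose 4.37-fold (log2 fold change 2.13, SE 0.18, adjusted p = 7.91e-10), together with Olig1 (1.22) and C1ql1 (1.73), while Pdgfra and Sox10, the defining genes of precursors of oligodendrocytes, did not pass (0.37 and -0.29). Pdgfra did pass in DESeq2 (adjusted p = 0.00137).

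Among 25 genes of astrocytes and Bergmann glia, 10 fell and 4 rose (median -0.39). Gfap, the intermediate filament of astrocytes, had 251, 330.5 and 302 CPM in the cerebella and 131, 93.3 and 81.2 CPM in the SHH MB. It fell 2.90-fold (log2 fold change -1.53, SE 0.15, adjusted p = 6.2e-09), as did the water channel gene Aqp4 (-1.15) and Hopx (-1.53). Sox9, a glial and progenitor factor, moved the other way, from 61.1, 69.4 and 73.2 CPM to 190.5, 205 and 246 CPM. Its rise was 3.15-fold (log2 fold change 1.66, SE 0.13, adjusted p = 1.02e-10). Of 13 neural stem cell genes, 4 rose and 4 fell. Nes, the progenitor intermediate filament nestin, had 41.4, 51.2 and 54.6 CPM and 187, 193 and 237 CPM (log2 fold change 2.07, SE 0.13, adjusted p = 4.49e-12). Sox1 had 27, 31.1 and 38.3 CPM and 139, 143 and 143 CPM (log2 fold change 2.15, SE 0.13, adjusted p = 2.73e-12). Sox2 did not pass (0.21), and Id3 (-0.91) and Id4 (-1.23) fell.

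Few immune, vascular and choroid plexus genes passed, where 9.41% of all genes tested rose and 6.81% fell. Of 20 microglia and macrophage genes only the lysozyme gene Lyz2 rose (1.503) and none fell, and of 20 endothelial genes only Cldn5 fell (-0.80). The medians were -0.21 and -0.05 on the log2 scale. Without SHH MB 1, 1 microglia gene fell, and without SHH MB 2 Cldn5 missed the threshold (adjusted p = 0.0281). Among 15 choroid plexus and ependyma genes 1 rose and 1 fell, and these counts moved to 2 rises and 0 falls without SHH MB 3, to 3 falls without P7 3, to 2 falls without SHH MB 2 and to 0 falls without P7 2. The choroid plexus gene Ttr had 564, 1199 and 663 CPM in the cerebella and 936, 1324 and 255 CPM in the SHH MB, which overlapped. Of 10 erythrocyte genes 1 rose and 1 fell. Without SHH MB 1, 5 of them rose, none rose without any one of the other libraries, and 2 fell without SHH MB 2. Of 19 genes of pericytes, meninges and fibroblasts, 3 rose and 3 fell, among them the pericyte channel gene Abcc9 (1.07) and the meningeal gene Ptgds (-1.93). Ptgds did not pass with robust estimation in edgeR (adjusted p = 0.172), in DESeq2 (adjusted p = 0.0595) or in limma (adjusted p = 0.0274).

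Cell cycle genes rose as a block. Of 46 mitosis genes, 43 rose and none fell (median 1.17), and of 44 S phase and DNA replication genes, 34 rose and none fell (median 0.98). The summed level of the mitosis genes was 2208 to 2943 CPM in the cerebella and 5576 to 6850.5 CPM in the SHH MB, and that of the S phase genes 1132 to 1467 CPM in the cerebella and 2691 to 2853 CPM in the SHH MB. Without the libraries numbered 3, 37 and 33 rose.

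Mki67, which encodes the proliferation marker Ki-67, had 570.4, 435 and 512 CPM in the cerebella and 1436, 1324 and 1727 CPM in the SHH MB. It rose 2.96-fold (log2 fold change 1.56, SE 0.13, adjusted p = 8.1e-10). Mcm6, part of the replicative helicase, had 78.3, 48.2 and 45.6 CPM and 209, 241 and 233 CPM, the largest rise of the S phase list at 3.95-fold (log2 fold change 1.98, SE 0.15, adjusted p = 1.42e-10). All 6 helicase subunit genes Mcm2 to Mcm7 rose, with log2 fold changes between 1.03 (Mcm5) and 1.98 (Mcm6). Pcna, the sliding clamp, did not pass (0.43, adjusted p = 0.0479) although its groups did not overlap. Of the mitosis genes, Kif20a, Ube2c and Pttg1 did not pass (0.47, 0.37 and -0.35). Hmmr (1.65), Cenpe (1.53) and Top2a (1.30) rose.

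Among cell cycle inhibitors, Cdkn1c, which encodes p57, fell (-0.74 on the log2 scale), the pocket protein gene Rbl1 (1.03) and Cdkn2c (0.70) rose, and Cdkn1a, the p21 gene, did not pass (0.01). Without SHH MB 2 the fall of Cdkn1c and the rise of Cdkn2c were lost (adjusted p = 0.0242 and 0.0104). Trp53, the p53 gene, rose from 36.7, 28.3 and 25.6 CPM to 82, 68.6 and 71.6 CPM (log2 fold change 1.29, SE 0.15, adjusted p = 1.27e-07). Of its 20 listed targets and regulators, Trp53 included, 3 rose (15.0%) and 1 fell (5.0%), against 9.41% and 6.81% of all genes tested. The rises were those of Trp53, Gtse1 and Mdm2, and the fall was that of Bax. Without P7 1, 6 rose, and the fall of Bax was lost without P7 1, P7 2, P7 3, SHH MB 2 or SHH MB 3. Gtse1 lost its call without P7 2 (adjusted p = 0.0190), and Mdm2 without SHH MB 3 (adjusted p = 0.0140).

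All 3 MYC family genes rose. Myc had 14.4, 15.6 and 14.3 CPM in the cerebella and 42.7, 37.4 and 50.8 CPM in the SHH MB. It rose 2.95-fold (log2 fold change 1.56, SE 0.17, adjusted p = 3.82e-08), and Mycl went from 62, 56.8 and 63.4 CPM to 111, 147 and 152 CPM (log2 fold change 1.17, SE 0.13, adjusted p = 7.81e-08). Of their partners and antagonists only Mga passed (0.64). Of 40 ribosome biogenesis genes, 31 rose and none fell (median 0.77). Nucleolin (Ncl) had 253, 221 and 223 CPM and 543, 499 and 573 CPM (log2 fold change 1.21, SE 0.12, adjusted p = 8.05e-09). Nucleostemin (Gnl3, 1.21), dyskerin (Dkc1, 1.19) and nucleophosmin (Npm1, 1.05) also rose, and each of the 40 had a positive log2 fold change, from 0.10 to 1.21.

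Glycolysis genes did not follow Hk2. Of 23, only Hk2 and Pkm (0.55) rose, and 10 fell (median -0.56). Hk1, the hexokinase of resting neurons, had 101, 123 and 125 CPM in the cerebella and 57.3, 56 and 57.6 CPM in the SHH MB. It fell 2.04-fold (log2 fold change -1.03, SE 0.12, adjusted p = 3.36e-07) while Hk2 rose. The neuronal enolase gene Eno2 (-1.53), Tpi1 (-1.44) and Aldoc (-1.23), an aldolase of astrocytes and Purkinje cells, fell too. The lactate dehydrogenase gene Ldha did not pass (0.22) and Ldhb fell (-0.91). Pkm lost its call without P7 3 (adjusted p = 0.0131). All 22 cholesterol synthesis genes had negative log2 fold changes, from -1.02 to -0.27, of which 9 passed. Only 3 of them passed without SHH MB 1 or without SHH MB 2, and 5 without P7 2 or without P7 3.

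Genes of synapses and excitability fell broadly. Of 33 presynaptic genes, 29 fell and 1 rose (median -1.08), of 41 glutamate, GABA and glycine receptor genes 31 fell and none rose (median -1.04), and of 38 neuronal ion channel genes 26 fell and 2 rose (median -0.82). These lists overlap in part with those of mature neurons, whose markers fell as given above.

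Syt4, a synaptotagmin of secretory vesicles, had 169, 147 and 120.4 CPM in the cerebella and 28, 32.3 and 36.1 CPM in the SHH MB. It fell 4.51-fold (log2 fold change -2.17, SE 0.14, adjusted p = 5.43e-12). The vesicle genes Sv2a (-1.80), Syp (-1.73) and Syt1 (-1.42) fell as well, whereas the complexin gene Cplx2 rose (0.74) and its relative Cplx1 fell (-1.66). With robust estimation Syt1 did not pass (adjusted p = 0.0567). Of 13 GABA-A receptor subunits, 12 fell, with Gabrb2 at 136, 128 and 89.9 CPM in the cerebella and 39.4, 38 and 35 CPM in the SHH MB (log2 fold change -1.66, SE 0.14, adjusted p = 1.22e-09). Of 24 glutamate receptor genes, 15 fell, among them Grin2b (-1.22), the NMDA receptor subunit of young neurons, and Gria1 (-1.86), while Gria2 did not pass (-0.18). Without SHH MB 1, 1 receptor gene rose. All 4 glycine receptor genes fell. The potassium channel gene Kcna1 had 187, 148 and 136 CPM and 38.9, 35.3 and 30.0 CPM (log2 fold change -2.18, SE 0.14, adjusted p = 4.73e-12). Among the channels, the calcium channel subunit Cacna2d1 (0.99) and the potassium channel Kcnh7 (0.67) rose. Kcnh7 did not pass without P7 3 (adjusted p = 0.0119) or without SHH MB 3 (adjusted p = 0.0168).

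Axon guidance genes went both ways, with 8 rises and 12 falls among 38 genes. All 4 Unc5 netrin receptor genes fell, of which Unc5c had 517, 415 and 378 CPM in the cerebella and 111, 139 and 126 CPM in the SHH MB (log2 fold change -1.80, SE 0.13, adjusted p = 4.88e-11). Dcc, the netrin receptor of attraction, rose as given above, together with Robo1 (1.05), Robo2 (0.56), Slit1 (1.46), Sema3e (1.47) and Sema3f (1.34). Robo2 did not pass without P7 2, P7 3 or SHH MB 3 (adjusted p = 0.0209, 0.0155 and 0.0282).

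SWI/SNF complexes of neural progenitors and of neurons differ in several subunits. Of 26 genes, 11 rose and 4 fell. Actl6a, the progenitor subunit, had 37, 31.7 and 29 CPM in the cerebella and 51.6, 58.2 and 46.8 CPM in the SHH MB (log2 fold change 0.68, SE 0.15, adjusted p = 0.000843). Actl6b, which replaces it in neurons, had 39.1, 45.2 and 37.6 CPM and 17, 17.8 and 14.8 CPM (log2 fold change -1.30, SE 0.16, adjusted p = 5.88e-07). Phf10 (0.56) and Ss18 (0.55), also of the progenitor form, rose, and Dpf3 (-0.93) of the neuronal form fell, but the neuronal Dpf1 (-0.19) and Ss18l1 (-0.42) did not pass. The core subunit Smarcc1 had 199, 182 and 213 CPM and 425, 393 and 461 CPM (log2 fold change 1.11, SE 0.12, adjusted p = 4.19e-08). Without P7 3, 7 of the 26 rose, and Phf10 and Ss18 were among those lost. Without SHH MB 2, Actl6a and Phf10 missed the threshold (adjusted p = 0.0117 and 0.0106), and without SHH MB 3, Ss18 did (adjusted p = 0.0107).

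Notch genes rose more often than they fell, 12 and 3 of 27. Dll3, a ligand that acts within the cell, had 5.69, 6.68 and 9.25 CPM in the cerebella and 25.1, 46.9 and 50.6 CPM in the SHH MB (log2 fold change 2.53, SE 0.23, adjusted p = 3.02e-09). Jag1 had 36.3, 29.5 and 37.3 CPM and 138, 114 and 137 CPM (log2 fold change 1.92, SE 0.13, adjusted p = 1.89e-11), the opposite of Jag2. Of 11 targets and mediators 8 rose, led by Hes1 (2.14), Maml2 (1.44) and Hey1 (1.22), while Hes5 did not pass (-0.51). The 3 falls (Jag2, Dtx1 and Numbl) were reduced to 1 without P7 2 and without each of the 3 SHH MB in turn.

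In the insulin-like growth factor axis, Igf2bp1, an RNA-binding protein of fetal tissue and of tumors, had 11.7, 12.9 and 16.3 CPM in the cerebella and 73, 55.5 and 72.7 CPM in the SHH MB. It rose 4.95-fold (log2 fold change 2.31, SE 0.17, adjusted p = 3.29e-11). Irs1, the adaptor of the IGF1 receptor, had 227, 195 and 189.7 CPM and 673, 744 and 879.99 CPM (log2 fold change 1.91, SE 0.13, adjusted p = 1.05e-11). The receptor gene Igf1r rose (0.75) and the ligand gene Igf1 fell (-0.80), joined by 1 more gene without SHH MB 3. Of 33 WNT pathway genes 9 rose and 4 fell, with the inhibitors Sfrp1 and Sfrp2 (2.18) at the top and the target gene Sp5 at the bottom (-1.65), while the target Axin2 did not pass (0.46). Without SHH MB 2, 2 of them fell. Of 28 BMP and TGF-beta genes, 2 rose and 5 fell, among them the BMP targets Id3 and Id4 and the BMP antagonist Nog (-1.52, from 32, 35 and 40 reads in the cerebella and 9, 16 and 7 in the tumors). Only 3 of these fell without P7 2 or without SHH MB 1. Nog lost its call without P7 2, P7 3, SHH MB 1 or SHH MB 3 (adjusted p = 0.0228, 0.0417, 0.0231 and 0.0377) and with the replicate block (adjusted p = 0.0130).

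**Figure D5:**
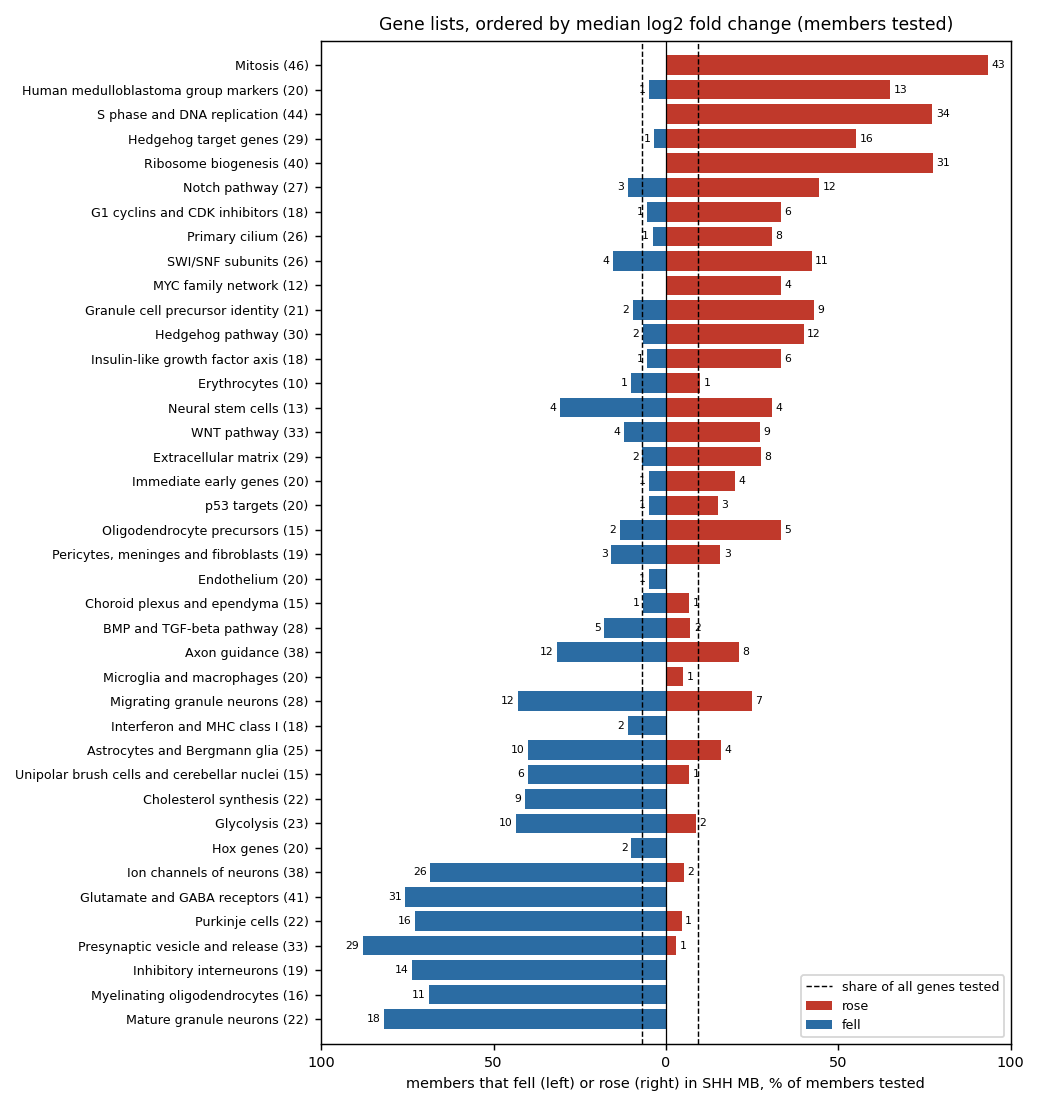
For 40 gene lists, the share of tested members that rose (red, to the right) or fell (blue, to the left) in SHH MB, in percent, with the number of genes at the end of each bar and the number tested in brackets. Lists are ordered by median log2 fold change, and mitosis and mature granule neurons stand at opposite ends. Dashed lines mark the shares of all genes tested (9.41% rose and 6.81% fell). The shares were larger among the 16916 protein-coding genes tested, of which 2217 rose and 1723 fell.

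Of 29 extracellular matrix genes 8 rose and 2 fell, with the basement membrane collagens Col4a1 (1.17) and Col4a2 (0.90) among the rises, which overlap one another on opposite strands. Without P7 2, 1 matrix gene fell. Of 20 immediate early genes 4 rose, Egr1 among them (1.26), and 1 fell, which became 2 rises without SHH MB 3 and 0 falls without any one library other than P7 1. Of 18 interferon and MHC class I genes none rose and 2 fell, and 0 fell without P7 1, P7 2 or SHH MB 2 and 1 without SHH MB 1 or SHH MB 3. Of 20 Hox genes, which the cerebellum hardly expresses, none rose and 2 fell, and 5 fell without P7 1, 0 without P7 2 or SHH MB 3 and 1 without SHH MB 1.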

How the data were processed

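RNA from 3 SHH MB and 3 P7 cerebella was sequenced by the authors from FFPE tissue after ribosomal RNA depletion, as single-end total RNA reads. Reads were trimmed with Trimmomatic, aligned to GRCm39 with STAR and assigned to genes with featureCounts. The versions in the submitters' processing notes are Trimmomatic 0.38.1, STAR 2.7.8a and featureCounts 2.0.1. The strand setting of the counting is not given in the sources used here, so a gene and an overlapping gene on the other strand cannot be told apart. The deposited counts are whole reads per gene and were not normalized. The deposited log2 values are DESeq2's variance-stabilized values, computed by the authors over all libraries, and were used only as an alternative.

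Counts were fitted with edgeR 4.0.16 (R 4.3.3): TMM scaling, edgeR's filter on low counts by group, quasi-likelihood test and Benjamini-Hochberg adjustment over 29018 genes. A gene passed at an adjusted p of at most 0.01, and a call was large at an absolute log2 fold change of at least 1.5. CPM use TMM-scaled library sizes, and log2 CPM a prior count of 2. A floor of 3 counts was 0.334 to 0.519 CPM per library, which covers counting error only. On counts simulated for this comparison with 200 genes changed by 2 on the log2 scale, edgeR recovered 156 among 27164 genes as large calls. It made 2 false large calls, and 5 unchanged genes passed the adjusted p of 0.01. Every simulated gene had the spread fitted for its level, with no outlier library and no shift of the libraries numbered 3. The figures therefore do not cover such cases.

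Named genes were Smo, Smarca4, members of 42 gene lists (939 genes, of which 918 were tested), the 10 largest rises and falls among large calls without overlap and with a mean of at least 2 log2 CPM, and the 10 lowest p-values, leaving out predicted and small RNA symbols. Members and lists were chosen with earlier results of these data known. Genes named outside this rule (Mfap1a and some of the genes with the GLI motif) were chosen after their values were seen. Promoters and positions come from GENCODE vM39 on GRCm39. Alternatives were RLE scaling, other filters, robust estimation, DESeq2 1.42.0, limma 3.58.1 on the deposited log2 values, a fit of all 10 libraries, a replicate block and leaving out each library. Leaving out both libraries numbered 3 was added after seeing the data. The results of a few named genes are not reported here.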

Additional observations from a re-analysis of the deposited data

How the results depend on the processing

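Of 2731 rises and 1977 falls (282 and 291 large), limma on the deposited log2 values called 790 and 812 (177 and 159 large), and leaving out both libraries numbered 3, chosen after seeing the data, gave 1792 rises. A fit of all 10 libraries in edgeR called 4 rises, all 4 large, and 0 falls, with 2635 genes at an unadjusted p under 0.05 against 9684 in the fit of 6 libraries. At an absolute log2 fold change of at least 2.5, 55 rose and 22 fell. Leaving out one library gave 1874 to 2730 rises and 1408 to 1881 falls (222 to 328 and 244 to 336 large). DESeq2 called 3085 rises and 1644 falls, and RLE scaling 2727 and 1778. No gene that passed changed sign under any alternative. Over all alternatives but the fit of 10 libraries, the lowest counts of rises were 1 (primary cilium), 3 (SWI/SNF) and 12 (ribosome biogenesis). For cholesterol synthesis genes the lowest count of falls was 1. Named genes that lost their call in limma included Ift74, Ift80, Evc, Lyz2, Egr1, Robo1, Slit1, Id3, Id4 and Actl6a. Some genes without a call gained one. Pdgfra passed in DESeq2, Pcna without P7 1 (adjusted p = 0.00192) and Ss18l1 with at least 10 counts in every library (adjusted p = 0.0066). Axin2 passed with robust estimation, in DESeq2 and without SHH MB 2.

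Same-numbered libraries of the 2 groups did not deviate together (correlations -0.17, 0.06 and -0.05) and were not treated as pairs. These correlations cannot show whether same-numbered libraries shared a batch. Both libraries numbered 3 lay on the same side of the second principal component (P7 -39.5, SHH MB -26.1), and a shared batch was not tested. With the replicate number as a block, 2392 genes rose and 1806 fell (283 and 294 large), and 4144 calls were shared.

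Some genes that did not pass changed sign. Their log2 fold changes without one library were -0.0865 to 0.127 (Cdkn1a), -0.131 to 0.0671 (Gli3), -0.122 to 0.0498 (Zic1), -0.163 to 0.186 (Igf2), -0.443 to 0.478 (Ttr), -0.24 to 0.0937 (Grin2c) and -0.12 to 0.0528 (Rbfox3). Cdkn1a was -0.0372 with at least 10 counts in every library, -0.0192 in the fit of 10 libraries, -0.000377 with the replicate block and -0.0357 without the libraries numbered 3. In DESeq2, Gli3 was 0.0163, Zic1 0.025 and Igf2 0.0592. Igf2 was 0.0247 with RLE scaling and 0.0145 without a filter, and Ttr -0.149 with the block and -0.159 in limma. The cause of these shifts was not tested.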
